A study of Mus musculus with 8 samples.

Results

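Sox genes encode transcription factors that bind DNA through a high-mobility-group box and are sorted into lettered subgroups by the likeness of that box. The 9 genes described here were chosen by symbol, as the Sox4, Sox5, Sox6, Sox8, Sox9, Sox10, Sox11, Sox12 and Sox13 rows of the deposited table. They are 9 of 49671 genes in that table and 9 of the 20 Sox genes looked up in it. All 9 passed the filter on low values and were tested. Sox8 and Sox11 passed it only through libraries of the basal gate described below, where they were higher.

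The RNA came from sorted mammary gland cells of female mice and made 8 libraries, 2 for each of 4 groups. Every sort gated out CD45, CD31 and CD140a, which mark blood, endothelial and fibroblast cells. CD24-positive cells with low CD29 (40000 cells, called luminal here) and with high CD29 (5000 cells, called basal here) were taken from CD1 mice and, as GFP-positive cells, from mice carrying K8rtTA, TetOCre and Rosa26-DNp63-IRES-GFP (called DNp63 here). In the DNp63 mice the keratin 8 promoter drives the doxycycline-dependent activator, which switches on Cre, and Cre then opens a cassette that expresses ΔNp63, the p63 form of basal cells, together with GFP. The DNp63 groups therefore hold cells that came through a GFP gate and a keratin 8 history, and the CD1 groups do not. Mouse strain, transgenes, the GFP gate and any doxycycline given only to the DNp63 mice went together, so their effects cannot be told apart. Below, a DNp63 effect means only the difference between the DNp63 and CD1 groups. The CD29 gate also went together with the number of cells sorted, 40000 or 5000, so these cannot be told apart either. The labels describe all mice as being of mixed genetic background. The sources used here do not give the age of these mice, the doxycycline schedule of the DNp63 mice, or whether a group's 2 libraries are from separate animals or pools. The p-values therefore measure only the spread between these libraries, which may be technical.

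Values are reads per 20000000 in each library, and 1 read was worth 2.78 to 4.83 of these units at depths of 4136998 to 7206729 reads. A difference is a log2 difference of values with 8 added, ± its standard error, and was called where limma's Benjamini-Hochberg adjusted p was under 0.05. Trp63, the gene that the transgene adds to, was at 61 and 45 with CD1 and 1297 and 1460 with DNp63 in the luminal gate, and at 5457 and 7079 with CD1 and 8088 and 8306 with DNp63 in the basal gate. Krt5, a basal keratin, stood at 97 to 167 in the luminal and 7502 to 14973 in the basal libraries, and Krt8, a luminal keratin, at 42397 to 45769 in the luminal libraries and in the basal gate at 8264 and 7206 with CD1 and 3688 and 4293 with DNp63, so both gates carried their defining keratins. Luminal markers also differed between DNp63 and CD1. Of 11 common luminal markers 8 fell and 0 rose from CD1 basal to DNp63 basal (median -1.07), with sums of 29900 and 23987 against 12215 and 13755. In the same comparison 5 of 12 tested luminal progenitor and alveolar markers and 5 of 12 hormone-sensing markers fell as well. Of all tested genes 0.521% were lower and 0.195% higher there. From CD1 luminal to DNp63 luminal 7 of 12 tested progenitor and alveolar markers fell and 1 rose (median -1.38). The sums over that list were 217168 and 223192 against 80005 and 89073. Between these luminal groups 1.78% of all tested genes were lower and 2.65% higher. Markers of other cells were also higher in the basal gate. Summed over 15 endothelial markers the luminal libraries had 3963 to 5255 and the basal libraries 51687 to 75315. Over 10 pericyte markers the sums were 4574 to 6354 and 19967 to 27181, and over 10 adipocyte markers 2831 to 4557 and 16577 to 29405. Over 12 fibroblast markers the sums were 9820 to 47132 in the luminal and 24562 to 101872 in the basal libraries, with both DNp63 basal libraries highest. Between the CD1 gates 14 of 15 endothelial, 9 of 10 pericyte, 8 of 10 adipocyte and 1 of 12 fibroblast markers rose. A fall was called for 1 adipocyte and 1 fibroblast marker. Of all tested genes 24.2% were higher and 20.1% lower between these gates. No gene of these 4 lists was at 0 in every library, and their part in the Sox differences between gates was not tested. In bulk RNA, fewer cells of a type and less RNA per cell cannot be told apart.

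The 9 genes fall into 3 subgroups. SoxE factors (Sox8, Sox9 and Sox10) work in neural crest, cartilage and glands, and Sox9 and Sox10 are known in the mammary gland from luminal progenitor cells and from basal and stem-like cells. SoxC factors (Sox4, Sox11 and Sox12) are single-exon activators of immature cells, and SoxD factors (Sox5, Sox6 and Sox13) lack an activation domain of their own and act beside other factors.

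Promoter sequence was looked up for the members in RefSeq (build GRCm38.p6). Of the 9 members 7 had 1 or more entries, and Sox9 and Sox10 had none. The 250 bases before the start site are shown for Sox8 and Sox11, which had near-zero values in the luminal gate and were higher together in the basal gate, and for Sox12, which had another pattern. All 3 lie on the minus strand and are written 5′ to 3′, and capitals mark GGGCGG or its reverse complement CCGCCC, the GC box. RefSeq start sites differ in part from the ends of the GENCODE genes given below. The lowest base of the Sox11 window is 27342719, beyond the GENCODE end of 27342574. For Sox12 it is 152398047, inside the GENCODE gene, which ends at 152398063.

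Sox8 (chr17:25570687-25570936): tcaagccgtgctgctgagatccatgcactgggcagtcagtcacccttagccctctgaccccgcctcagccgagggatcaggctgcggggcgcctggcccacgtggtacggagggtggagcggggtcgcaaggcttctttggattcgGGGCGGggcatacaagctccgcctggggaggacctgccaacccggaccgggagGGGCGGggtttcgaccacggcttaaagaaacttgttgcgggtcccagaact

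Sox11 (chr12:27342719-27342968): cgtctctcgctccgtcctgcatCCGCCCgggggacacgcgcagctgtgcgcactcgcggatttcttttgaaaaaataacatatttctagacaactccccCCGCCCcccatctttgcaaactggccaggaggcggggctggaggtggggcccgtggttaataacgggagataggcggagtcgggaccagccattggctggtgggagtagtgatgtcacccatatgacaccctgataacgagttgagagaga

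Sox12 (chr2:152398047-152398296): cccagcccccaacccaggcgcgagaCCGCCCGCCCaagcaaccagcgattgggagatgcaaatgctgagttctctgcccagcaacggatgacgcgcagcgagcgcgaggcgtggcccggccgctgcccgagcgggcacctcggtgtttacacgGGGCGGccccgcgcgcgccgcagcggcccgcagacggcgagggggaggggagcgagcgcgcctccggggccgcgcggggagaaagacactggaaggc

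The GC box occurred 2 times in the Sox8 window, 2 times in the Sox11 window and 3 times in the Sox12 window, where 2 of the matches overlap. It was present in 4 of the 12 windows of the 7 matched members and in 32.7% of 32851 RefSeq promoter windows of that length. These 4 windows were of Sox6, Sox8, Sox11 and Sox12. Only Sox6 had several windows, at alternative start sites, so the 12 windows are not of 12 genes. The windows were 65.6%, 58.0% and 74.4% G or C, against a median of 52.4% over all windows. ACAAT or its reverse complement ATTGT, the core that Sox factors bind, was in none of these 3 windows. It was in 4 of the 12 windows of the 7 matched members, all of Sox5 or Sox6, and in 27.7% of all windows. The p53 family decamer was searched as RRRCWWGYYY, with R for A or G, W for A or T and Y for C or T. It was in none of the 12 windows and in 7.13% of all. A missing match says only that these letters are not in these windows.

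In CD1 basal against CD1 luminal cells 4 of the 9 genes rose (Sox5, Sox8, Sox10 and Sox11), Sox9 fell, and 4 were not called (Sox4, Sox6, Sox12 and Sox13). In the same comparison 44.3% of 16900 tested genes were called, so 5 of 9 is near the background. The median of the 9 differences was 0.52, against -0.01 over all tested genes. In DNp63 basal against DNp63 luminal cells, which shares no library with it, the same 5 genes were called in the same directions, and Sox13 rose and Sox12 fell as well, with 49.2% of all tested genes called, 24.9% higher and 24.4% lower. Of the 7494 genes called between the CD1 gates, 6105 (81.5%) were called in the same direction between the DNp63 gates, so agreement of these 5 Sox genes is also near the background. Libraries of the compared groups did not overlap for 6 of the 9 genes between the CD1 gates and for 8 of 9 between the DNp63 gates, against 71.3% and 78.6% of all tested genes. All these counts include Sox8 and Sox11. These genes passed the filter only through the basal libraries, so their direction followed from how they entered the test.

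**Figure D1:**
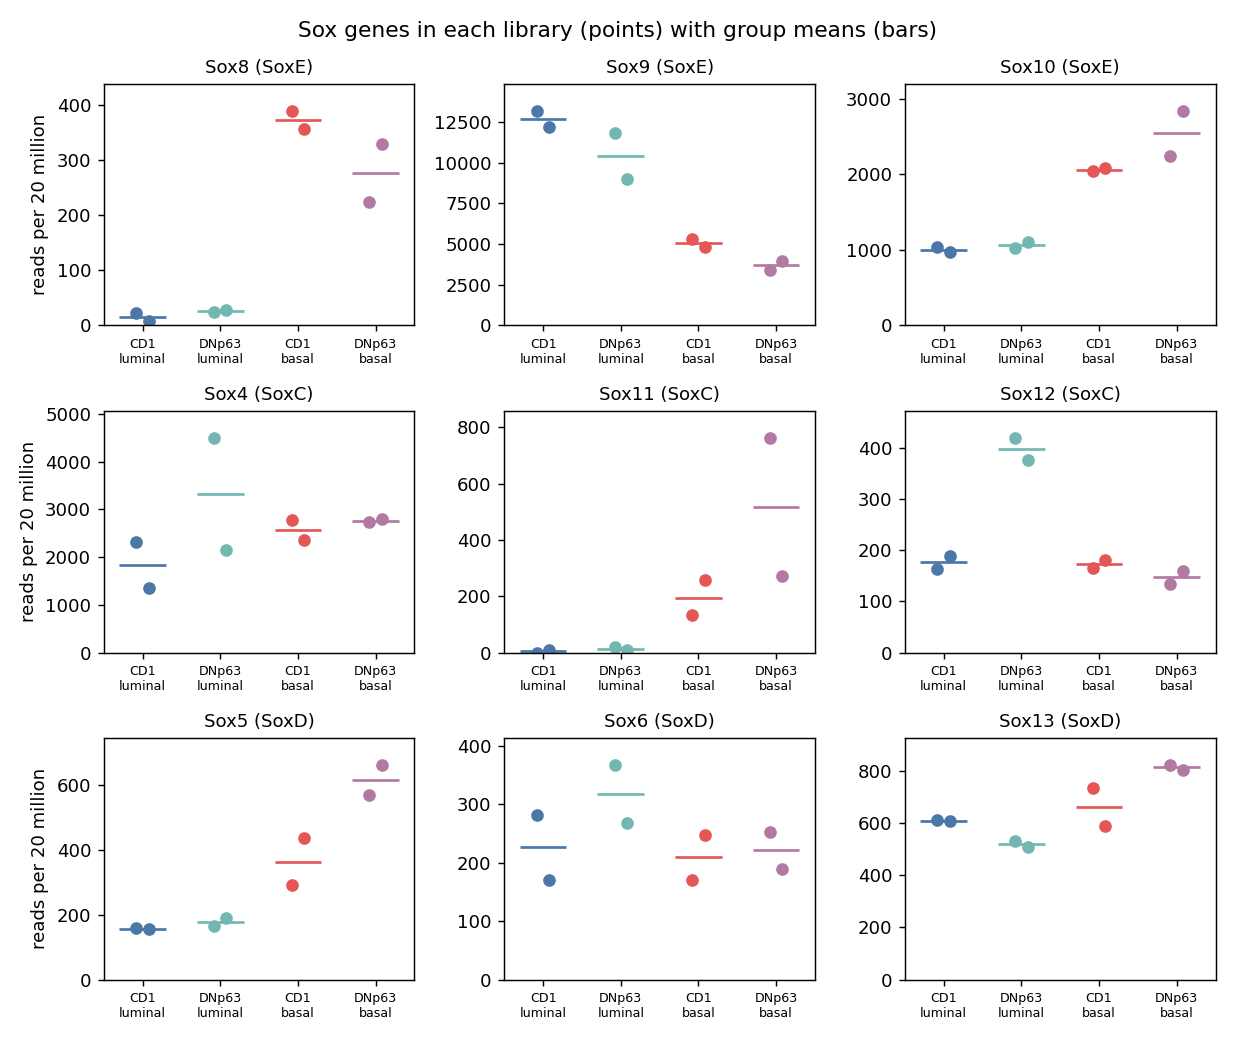
Reads per 20000000 of the 9 Sox genes in each library. Each point is a library and each bar a group's mean, on a linear axis from 0 in each panel, and the SoxE, SoxC and SoxD subgroups in rows. Sox9 was highest in the luminal libraries (9031 to 13212) and Sox10 in the basal libraries (2047 to 2843), and Sox12 stood highest in the DNp63 luminal libraries (376 and 420).

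Sox9 (ENSMUSG00000000567, GRCm38 chromosome 11, 112782224 to 112787760, plus strand, from GENCODE M21) had the highest mean level per kilobase of exon of the 9 genes in every group. Its luminal values were 13212 and 12192 with CD1 and 11809 and 9031 with DNp63, and the basal ones 5325 and 4807 with CD1 and 3414 and 3970 with DNp63. The 4 groups were thus ordered from CD1 luminal down to DNp63 basal with no overlap between neighbours. Sox9 fell by 1.34 ± 0.15 on the log2 scale from CD1 luminal to CD1 basal (limma adjusted p = 0.000179) and by 1.46 ± 0.15 from DNp63 luminal to DNp63 basal (limma adjusted p = 9.61e-05). The lower values in DNp63 than in CD1 cells were not called in either gate, with differences of -0.36 (95% interval -0.70 to -0.01, limma adjusted p = 0.274) in the luminal and -0.47 (-0.82 to -0.13, 0.266) in the basal gate. The luminal markers that fell in the same comparisons are given above, and their part in the Sox9 values was not tested.

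Sox10 (ENSMUSG00000033006, chromosome 15, 79154908 to 79165240, minus strand) went the other way. Luminal libraries gave 1036 and 967 with CD1 and 1022 and 1104 with DNp63, and the basal ones 2047 and 2076 with CD1 and 2247 and 2843 with DNp63. The luminal groups overlapped each other, and both lay below all 4 basal libraries. Sox10 rose by 1.02 ± 0.14 between the CD1 gates (limma adjusted p = 0.000596) and by 1.27 ± 0.14 between the DNp63 gates (limma adjusted p = 0.000151). Between DNp63 and CD1 it was not called in the luminal (0.03, interval -0.30 to 0.35) or the basal gate (0.28, interval -0.05 to 0.61). Schwann cells and melanocytes also use Sox10, and of their 13 markers 8 were tested between the CD1 gates, with 4 higher and 1 lower, against 24.2% and 20.1% of all tested genes. Cdh19, a cadherin of glia, stood at 18 to 112 in the luminal and 334 to 666 in the basal libraries. The pigment gene Dct stood at 0 to 10 over all libraries. Summed over the 13 markers the luminal libraries had 2570 to 2971 and the basal libraries 2359 to 2815, a sum in which Mbp was the largest part of the luminal values (2015 to 2514). The part of such cells in the Sox10 difference was not tested.

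Sox8 (ENSMUSG00000024176, chromosome 17, 25565892 to 25570686, minus strand), the third SoxE gene, was near the detection limit in luminal cells. In luminal cells its values were 22 and 8 with CD1, or 6 and 2 reads, and 25 and 28 with DNp63, and the basal ones 390 and 356 with CD1 and 224 and 329 with DNp63. All 4 basal libraries lay above all luminal ones, and Sox8 passed the filter only through the basal libraries. It rose by 4.11 ± 0.37 between the CD1 gates (limma adjusted p = 5.37e-05) and by 3.04 ± 0.37 between the DNp63 gates (limma adjusted p = 0.000236). Over the 17 alternatives these ranged from 3.13 (with 32 added) to 4.64 (with voom) and from 2.39 to 3.32, and all were called. Summed reads were 174 against 8 in CD1 cells, a ratio of 25.6 with an exact 95% interval of 12.7 to 60.2 that covers counting error only. Sox8 shares 329 exon bases with 2810468N07Rik on the opposite strand, which stood at 17 to 54 over all libraries. The sources used here do not give the strand setting of the counting, so reads of that overlap cannot be assigned to either gene.

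Levels of different genes were compared as reads per 20000000 and per kilobase of exon, with the exons of all GENCODE M21 transcripts of a gene joined. Joined exons came to 14376 bases for Sox5 and 14832 for Sox6, against 4795 for Sox4 and 4135 for Sox9. Shares and orders of different genes therefore depend on that annotation, and which transcripts these cells used was not tested. On that scale Sox9 made up 75.5% and 78.5% of the summed level of the 9 genes with CD1 and 65.0% and 67.5% with DNp63 among luminal libraries. Among basal libraries it made up 44.1% and 43.0% with CD1 and 32.1% and 33.2% with DNp63. Sox10 made up 7.62% to 11.2% in the luminal and 23.0% to 32.2% in the basal libraries. Sox4 made up 11.4% and 7.51% with CD1 and 21.4% and 13.8% with DNp63 among luminal libraries. Among basal libraries Sox4 made up 19.9% and 18.2% with CD1 and 22.1% and 20.1% with DNp63. The ratio of Sox9 to Sox10 was 9.41 and 9.30 with CD1 and 8.53 and 6.04 with DNp63 for luminal libraries, and 1.92 and 1.71 with CD1 and 1.12 and 1.03 with DNp63 for basal ones. In DNp63 basal cells the range of Sox9 per kilobase (826 to 960) overlapped that of Sox10 (736 to 932), and in the other 3 groups Sox9 lay above every other member. The common luminal markers were also lower in DNp63 basal than in CD1 basal libraries. The test called 8 of 11 lower, against 0.521% of all tested genes, and their part in the ratio was not tested.

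**Figure D2:**
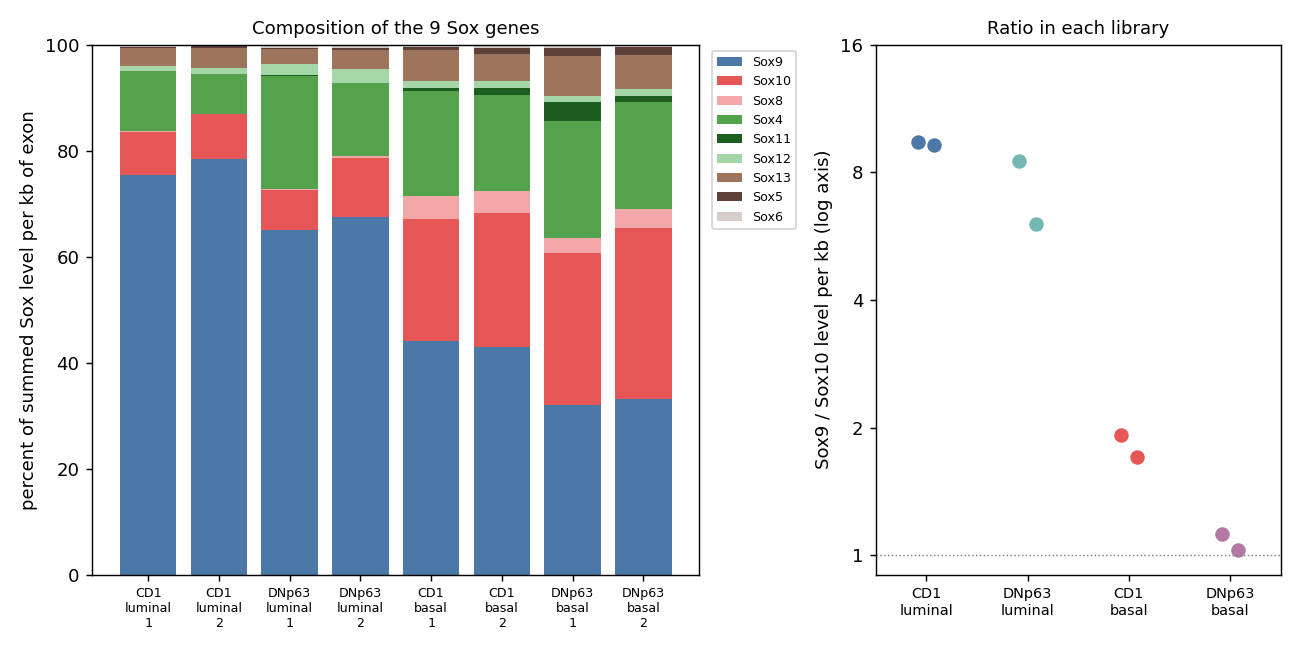
Share of each Sox gene in the summed level per kilobase of exon (left, percent, 1 bar a library) and the Sox9 to Sox10 ratio of these levels (right, log axis, 1 point a library). The ratio lay between 6.04 and 9.41 in the luminal libraries, at 1.92 and 1.71 in CD1 basal and at 1.12 and 1.03 in DNp63 basal.

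The order below Sox9 also differed between gates. In CD1 luminal cells Sox4 (383 per kilobase) and Sox10 (328) overlapped and were followed by Sox13 (141), Sox12 (39.6), Sox6 (15.2), Sox5 (10.99), Sox8 (4.81) and Sox11 (0.48). In CD1 basal cells the order was Sox10 (676), Sox4 (537), Sox13 (153), Sox8 (120), Sox12 (38.7), Sox5 (25.4), Sox11 (23.4) and Sox6 (14.1), where Sox11 overlapped both Sox5 and Sox6, and Sox5 and Sox6 did not overlap each other. SoxE genes together made up 72.8% to 87.0% of the summed level per kilobase in the luminal and 63.5% to 72.4% in the basal libraries.

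Sox11 (ENSMUSG00000063632, chromosome 12, 27334264 to 27342574, minus strand), a SoxC gene of embryonic neurons and other immature cells, was detected almost only in the basal gate. For the luminal gate the values were 0 and 8 with CD1 and 20 and 8 with DNp63, and the basal ones 133 and 256 with CD1 and 763 and 271 with DNp63. The libraries of each basal group differed by 1.93-fold and 2.82-fold. The basal groups lay above the luminal groups, and Sox11 passed the filter only through the basal libraries. It rose by 4.10 ± 0.60 between the CD1 gates (limma adjusted p = 0.000722) and by 4.47 ± 0.60 between the DNp63 gates (limma adjusted p = 0.000392). The size of the difference moved with the pseudocount. Between the CD1 gates it was 2.62 with 32 added, 5.38 with 2 added and 5.52 with voom on recovered reads (limma adjusted p = 0.0304), and was called in all 17 alternatives. The CD1 luminal libraries held 2 reads of Sox11 and the CD1 basal libraries 93, a ratio of 54.7 with an exact 95% counting interval of 14.7 to 459. DNp63 basal was not called against CD1 basal (1.25, interval -0.11 to 2.61, limma adjusted p = 0.486).

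Sox12 (ENSMUSG00000051817, chromosome 2, 152393611 to 152398063, minus strand), a weaker activator of the same subgroup, was the one member called between DNp63 and CD1 luminal cells. Luminal cells held 164 and 189 with CD1 and 420 and 376 with DNp63, and the basal ones 165 and 180 with CD1 and 135 and 160 with DNp63. The DNp63 luminal libraries lay above the other 6, which ranged from 135 to 189. It rose by 1.08 ± 0.23 in DNp63 luminal cells (limma adjusted p = 0.0328), where 4.43% of all tested genes were called and 2.65% were higher, and fell by 1.36 ± 0.23 from DNp63 luminal to DNp63 basal (limma adjusted p = 0.00132). Between the luminal groups 7 of 12 tested luminal progenitor and alveolar markers fell, against 1.78% of all tested genes. The part of these markers in the Sox12 difference was not tested. The call between the luminal groups was lost when any of the 8 libraries was left out, those of the basal gate included (differences 0.98 to 1.18, limma adjusted p = 0.055 to 0.187), with no filter on low values (0.0562) and in a fit of the luminal libraries alone (0.137). Between the CD1 gates Sox12 was not called (-0.04, interval -0.56 to 0.47). The test of whether its DNp63 effect differed between gates gave -1.31 ± 0.32 and was not called (limma adjusted p = 0.15).

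Sox4 (ENSMUSG00000076431, chromosome 13, 28948919 to 28953713, minus strand), the most abundant SoxC gene, was not called in any comparison. The luminal libraries showed 2319 and 1353 with CD1 and 4502 and 2141 with DNp63, and the basal ones 2788 and 2360 with CD1 and 2727 and 2795 with DNp63. The luminal libraries of each group differed by 1.71-fold and 2.10-fold, and DNp63 luminal overlapped all 3 other groups. Sox4 shares 2616 of its 4795 exon bases with Gm26735 on the opposite strand, which stood at 0 to 14. As for Sox8, the strand setting is not given, so reads of that overlap cannot be assigned to either gene. The level of Sox4 per kilobase carries the same limit. The difference of DNp63 luminal from CD1 luminal was 0.75 with an interval of -0.03 to 1.52 (limma adjusted p = 0.31). Against CD1 luminal without its replicate 1, DNp63 basal was called higher (1.05, limma adjusted p = 0.0448), and with both libraries it was not (0.61, 0.173).

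Among the SoxD genes Sox5 (ENSMUSG00000041540, chromosome 6, 143828425 to 144781977, minus strand) was higher in the basal gate. Luminal Sox5 values were 160 and 156 with CD1 and 167 and 192 with DNp63, and the basal ones 293 and 436 with CD1 and 569 and 663 with DNp63, with no overlap between any groups. Its antisense gene Sox5os1, which shares 1330 exon bases with it, stood at 0 to 5, and reads of that overlap cannot be assigned to either gene. Sox5 rose by 1.13 ± 0.25 between the CD1 gates (limma adjusted p = 0.0058) and by 1.76 ± 0.25 between the DNp63 gates (limma adjusted p = 0.000486). The higher values of DNp63 basal over CD1 basal were not called (0.75, interval 0.19 to 1.31, limma adjusted p = 0.274).

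Sox13 (ENSMUSG00000070643, chromosome 1, 133382303 to 133424377, minus strand) varied least. Among luminal libraries it read 610 and 608 with CD1 and 531 and 509 with DNp63, and the basal ones 733 and 587 with CD1 and 822 and 803 with DNp63. The CD1 groups overlapped, and the DNp63 groups lay below and above both. It rose by 0.67 ± 0.15 between the DNp63 gates (limma adjusted p = 0.00689) and was not called between the CD1 gates (0.09, interval -0.26 to 0.44) or in the test of the difference between these gate effects (0.57 ± 0.22, limma adjusted p = 0.373). Sox6 (ENSMUSG00000051910, chromosome 7, 115470872 to 116038796, minus strand), the partner of Sox5 in cartilage, ranged from 170 to 367 over all 8 libraries and was not called in any comparison. Per kilobase, Sox5 was at 0.469 to 0.941 of Sox6 in the luminal and 1.78 to 3.62 in the basal libraries.

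**Figure D3:**
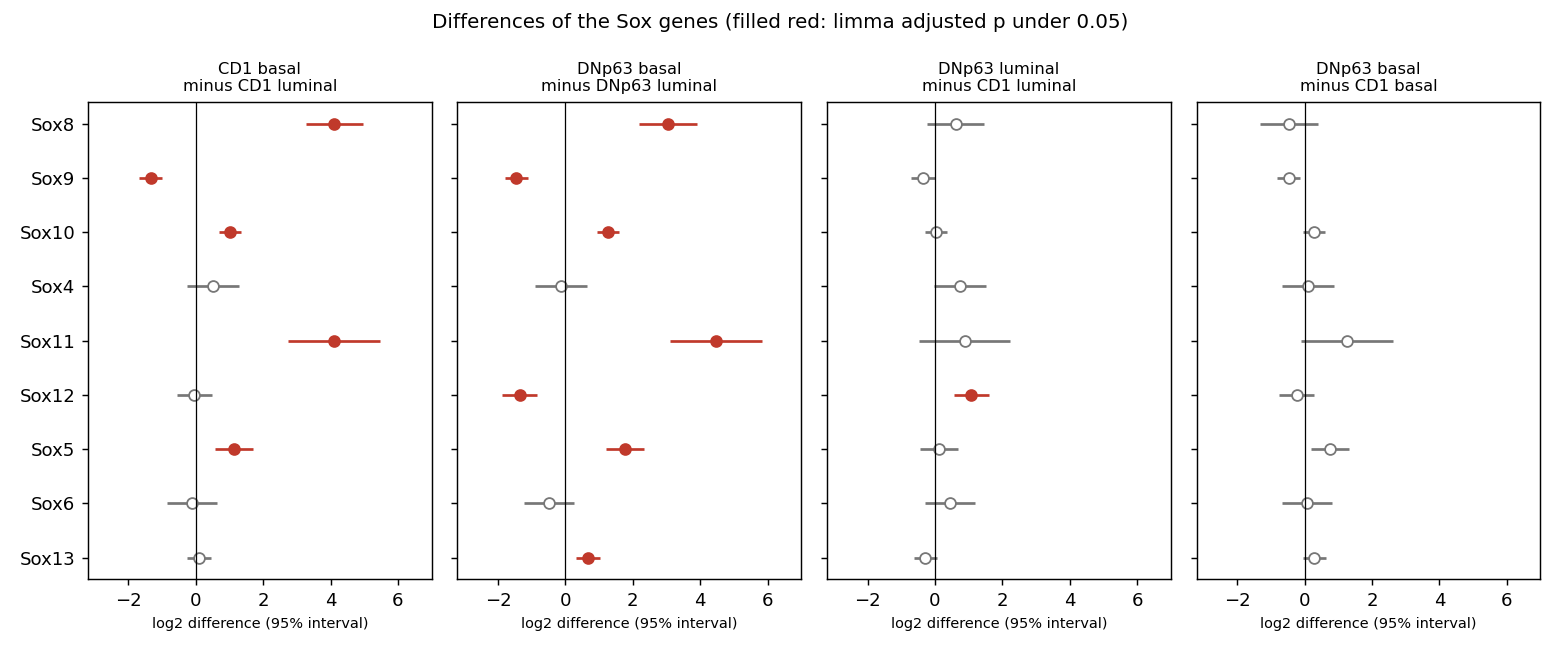
Log2 differences of the 9 Sox genes in 4 comparisons, with unadjusted 95% intervals from limma, and filled red points where the adjusted p was under 0.05. Sox8 and Sox11 had the largest differences between the gates (4.11 and 4.10 in CD1 mice), Sox12 was called between the luminal groups (1.08), and no member was called between the basal groups.

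None of the 9 genes was called between DNp63 and CD1 basal cells by limma on values or by limma voom on recovered reads, and 2 of them, Sox5 and Sox9, had an unadjusted p under 0.05 (0.0141 and 0.0129). That comparison called 0.716% of all tested genes. None was called in the test of whether the DNp63 effect differed between gates, by either method, and 2 had an unadjusted p under 0.05, Sox12 (0.00289) and Sox13 (0.0275), with 0.343% of all tested genes called, 0.0828% higher and 0.26% lower. Groups did not overlap for 5 of the 9 genes between the luminal groups and for 7 of 9 between the basal groups, against 46.3% and 42.6% of all tested genes. DNp63 basal against CD1 luminal, which shares libraries with the comparisons above, called the 5 genes called between the CD1 gates, with differences of 1.88 for Sox5, 3.65 for Sox8, -1.81 for Sox9, 1.30 for Sox10 and 5.35 for Sox11, and 47.2% of all tested genes were called. The libraries of those groups did not overlap for 8 of the 9 genes, against 73.2% of all tested genes. The limit that the filter sets on Sox8 and Sox11 holds here too.

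Of the 11 other Sox genes, 3 passed the filter, and these were the SoxF genes Sox7, Sox17 and Sox18, which work in endothelium. Sox17 and Sox18 needed the basal libraries to pass. Sox7 also reached the filter within the luminal gate, at 54 in CD1 replicate 1 and at 64 and 47 with DNp63. In CD1 luminal libraries Sox7 stood at 54 and 30, Sox17 at 40 and 23, and Sox18 at 25 and 12. In CD1 basal libraries they stood at 1681 and 1593, 1250 and 1350, and 783 and 955. The basal libraries lay above the luminal ones for all 3, and the differences between the CD1 gates were 5.07, 5.07 and 5.08 (limma adjusted p = 5.55e-06, 1.26e-05 and 1.2e-05). The endothelial markers Pecam1, which encodes the gated-out CD31, Cdh5 and Kdr were higher in the same libraries. Pecam1 stood at 331 to 571 in the luminal and 4980 to 8163 in the basal libraries. The endothelial list had a median difference of 4.81 between the CD1 gates, with Robo4, a guidance receptor of vessels, at 6.07. Sox3 and Sry were at 0 in every library. Sox15, a gene of muscle precursors, stood at 19 to 37, and the values of Sox1, Sox2, Sox14, Sox21 and Sox30 were at most 19.

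**Figure D4:**
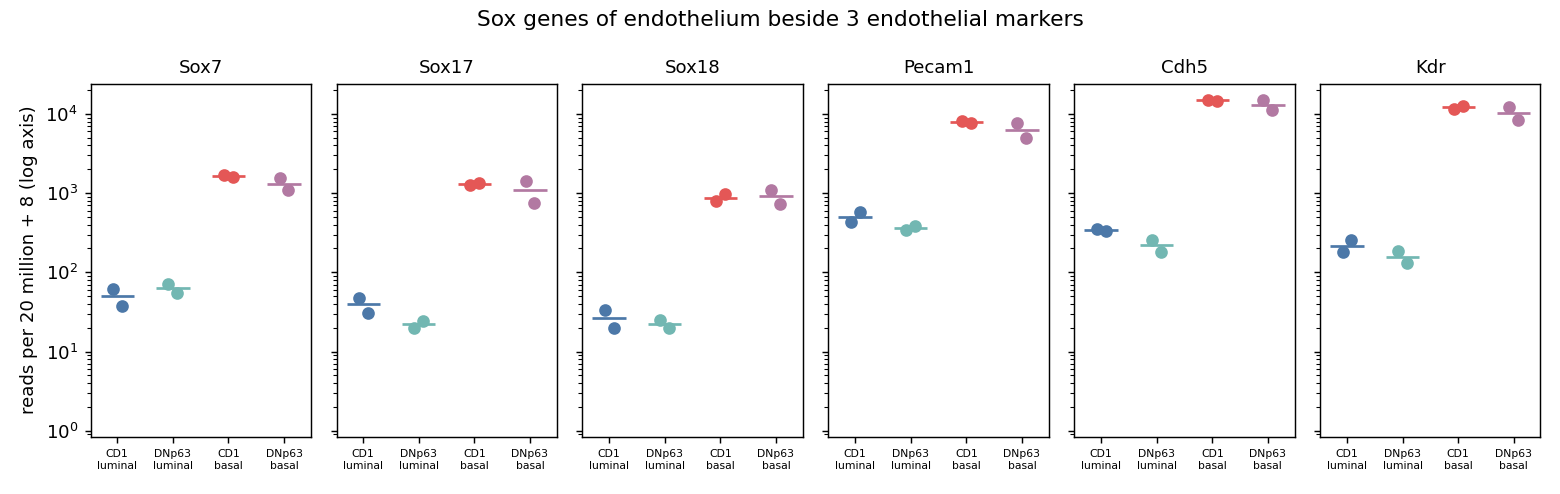
Reads per 20000000 with 8 added (log axis) for Sox7, Sox17 and Sox18 and for the endothelial markers Pecam1, Cdh5 and Kdr, where a point is a library and a bar the mean of its group. All 6 genes were higher in the 4 basal than in the 4 luminal libraries, Sox7 at 1083 to 1681 against 30 to 64.

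Genes that work with Sox factors or downstream of them were read from lists. Of 12 cartilage genes found in the table, 7 were tested, and 4 rose and 0 fell between the CD1 gates (median 1.34), with Ctgf, a matrix growth factor, at 5.41 and Col9a2, a cartilage collagen, at 2.95. The cartilage genes Acan and Col2a1 stood at 44 to 128 and at 0 to 76 over all libraries. Of 19 neural crest and glial genes linked to Sox10, 13 were tested, and 9 rose and 2 fell (median 2.66), with the endothelin receptor Ednrb at 4.80 and the transcription factor Egr2 at 3.94. One of the 2 that fell was Erbb3, a receptor of glia and also of luminal epithelium (-2.67). Erbb3 fell again from CD1 basal to DNp63 basal (-1.07, limma adjusted p = 0.0374). The median of the 11 common luminal markers there was -1.07, and the part of luminal cells in the Erbb3 values was not tested. Of 10 SoxC targets 8 were tested, and 6 rose and 1 fell (median 1.63), with Plxna2, a semaphorin receptor, at 4.62 and Nrp1, its co-receptor, at 4.17. The one that fell was Tead2, a partner of the Hippo effector Yap (-1.67). Of 25 partners and modifiers 21 were tested, and 6 rose and 0 fell (median 0.13), with Snai2, a transcription factor of basal cells that acts with Sox9, at 5.09 and Pparg at 4.50. Between the DNp63 gates 5 cartilage, 10 neural crest and glial, 6 SoxC target and 6 partner genes rose, and 0, 2, 1 and 1 fell. The background was 24.2% of tested genes higher and 20.1% lower between the CD1 gates, and 24.9% and 24.4% between the DNp63 gates. Nrp1 and Ednrb are also genes of endothelium, and Pparg of adipocytes, and the part of those cells was not tested. Between DNp63 and CD1 luminal cells 1 of the 49 genes tested over these 4 lists was called (2.04%, against 4.43% of all tested genes), which was Cdh19 (1.62, limma adjusted p = 0.0491), at 18 and 30 against 112 and 75.

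The tested genes with patterns most like each member were found by the root mean square distance between centred log2 values over the 8 libraries, as a description, and each is given with that distance and Pearson's r. All points share their groups and libraries. The genes nearest to Sox9 were Egln3 (0.0974, r = 0.994), Lpin2 (0.109, r = 0.996), Erbb2 (0.116, r = 0.988). Sox10 was nearest to Nfix (0.0629, r = 0.995), Sh3bgrl (0.0887, r = 0.989), Gm37685 (0.103, r = 0.985). The genes nearest to Sox8 were Prrg3 (0.238, r = 0.992), Dlk2 (0.278, r = 0.989), St6gal1 (0.303, r = 0.987). Sox4 was nearest to Pcyox1l (0.142, r = 0.947), Gm45250 (0.202, r = 0.926), 4930594M22Rik (0.209, r = 0.882). The genes nearest to Sox11 were Fscn1 (0.436, r = 0.985), Vwa1 (0.455, r = 0.98), Ppp2r2b (0.465, r = 0.979). Sox12 was nearest to 5730480H06Rik (0.0976, r = 0.993), Casc1 (0.13, r = 0.97), Mtf1 (0.165, r = 0.955). The genes nearest to Sox5 were Sardh (0.13, r = 0.987), Syt11 (0.147, r = 0.982), Pth1r (0.174, r = 0.976). Sox6 was nearest to Ccdc124 (0.129, r = 0.953), Creb3 (0.141, r = 0.943), Zfp668 (0.145, r = 0.909). The genes nearest to Sox13 were Prosc (0.0785, r = 0.956), Tti1 (0.0882, r = 0.936), Slc25a44 (0.0962, r = 0.921). Sox11 had the most distant neighbours and Sox10 the nearest one of the 9.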

How the data were processed

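Per the labels' protocols, a nanoprep kit gave the RNA, Ovation Solo the libraries and a NovaSeq the reads. STAR, HTSeq and the build GRCm38 (mm10) are named per the submitters' processing notes, with versions, strand setting and annotation release not given in the sources used here. Deposited values are score values made by the authors, which the labels' description and the values show to be reads scaled to 20000000 per library and rounded up. Reads were recovered by dividing by the value of 1 read, and 99.8% to 99.9% of values above 0 matched a whole read exactly after rounding up.

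TMM scaling (trims of 30% and 5%) gave factors of 0.974 to 1.03, and log2 of the scaled value plus 8 entered limma 3.58.1 (R 4.3.3) as 4 group means with a trend on mean level, which left 4 residual degrees of freedom and 4.69 from the prior. Tests were two-sided and covered the 16900 genes that reached 40 in 2 or more libraries, with Benjamini-Hochberg adjustment over all of them in each comparison. Coordinates and exon lengths are from GENCODE M21, which held 49412 of 49671 gene IDs. Named genes are the 9 members, other Sox genes past the filter, the called genes with the largest differences, up to 2 in a list, and the 3 nearest genes of each member. Tead2, Acan, Col2a1, Dct, Mbp, Pecam1, Cdh5, Krt5, Krt8, Trp63 and the other Sox genes under the filter were named after their values were seen. Members and lists were chosen with earlier results of these data known. The fit was tested first on simulated data in which all genes had the same spread. There 100 of 16900 genes were changed at each fold size. Between groups the fit recovered 30% to 40% of 2-fold and 86% to 93% of 4-fold changes. In the test of whether the DNp63 effect differed between gates it recovered 11% and 63%. A difference of about 2-fold that was not called is therefore not shown to be absent. Recovery with 44.3% to 49.2% of genes called, as between basal and luminal groups, was not tested. Alternatives were other scalings, pseudocounts and filters, voom on recovered reads, a fit of the compared groups alone, a replicate block, and leaving out each library.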

Additional observations from a re-analysis of the deposited data

How the results depend on the processing

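The 5 Sox genes called between the CD1 gates and the 7 between the DNp63 gates numbered 5 and 7 under all 17 alternatives, and 5 to 6 were called in DNp63 basal against CD1 luminal. These counts include Sox8 and Sox11, which passed the filter only through the basal libraries. For Sox genes called between DNp63 and CD1 luminal, the count of 1 went to 0 with no filter on low values, with the compared groups alone, and when any 1 of the 8 libraries was left out (0 to 0). All genes called there went from 749 to 442 with no filter, to 40 with the compared groups alone, and to 142 (without DNp63 luminal replicate 2) to 985 when a library was left out. In DNp63 basal against CD1 basal the 121 genes became 45 with no filter, 65 with voom and 3 (without CD1 basal replicate 1) to 190 when a library was left out. In the test of whether the DNp63 effect differed between gates the 58 genes became 116 with a pseudocount of 32, 10 with no filter, 22 with voom and 4 to 163 when a library was left out. The Sox count was 0 in both of these throughout. The cause of these shifts was not tested.

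Same-numbered libraries share only a number in the labels. Their deviations from group means correlated at 0.34 between the CD1 gates, 0.27 between the DNp63 gates and -0.01 to 0.04 otherwise. With the replicate block the called genes of DNp63 basal against CD1 basal rose to 203 and those of the test between gates to 128, and no count of called Sox genes changed.

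Single Sox differences that were not called changed sign in 23 cases, none called (lowest limma adjusted p = 0.257). Leaving out libraries gave ranges across 0 for Sox6 (-0.44 to 0.25), Sox12 (-0.13 to 0.0658) and Sox13 (-0.0403 to 0.22) between the CD1 gates. For Sox10 in DNp63 against CD1 luminal the range was -0.0211 to 0.0748, with -0.0131 under median-of-ratios scaling. For Sox6 in DNp63 basal it was -0.33 to 0.36 against CD1 luminal and -0.22 to 0.36 against CD1 basal. For Sox4 it was -0.0037 to 0.18 between the basal groups and -0.68 to 0.46 between the DNp63 gates. In the test between gates it was -0.67 to 0.0174 for Sox6, -0.32 to 0.13 for Sox9 and -0.36 to 1.101 for Sox11, which was also -0.41 with a pseudocount of 2 and -0.52 with voom.

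At these depths a value of about 40 rests on some 10 reads. Luminal libraries held fewer, 2 to 9 reads of Sox8 and 0 to 7 of Sox11, which limits both genes in the luminal gate.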
